A study of Mus musculus with 13 samples.

Results

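The genes described here make fatty acids, triglycerides and cholesterol in the endometrium of ovariectomized mice, and they fall into a fatty acid branch and a sterol branch. Members, 38 in all, were named from pathway knowledge, with earlier results of these data known. Each was read from the array feature whose only gene symbol is that member, taking the brightest where several existed. Of the 38, 36 had such a feature, which is 19 of 21 in the fatty acid branch and 17 of 17 in the sterol branch, out of 30743 genes with 1 symbol on the array. The desaturase gene Scd2 and the transcription factor gene Srebf1 were represented only by features that also carry a second symbol and were not analysed here. All 36 measured members had a mean level above 4.618, the median of the 65929 features.

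Fatty acid synthesis starts from citrate, which is cleaved to acetyl-CoA, carboxylated to malonyl-CoA and built into palmitate, and elongases and desaturases then turn palmitate into longer and less saturated chains. Cholesterol synthesis runs from acetyl-CoA over mevalonate and squalene to lanosterol, which is trimmed in several steps to cholesterol. Transcription of both pathways is driven by sterol regulatory element binding proteins, which the Insig proteins hold in the endoplasmic reticulum when sterols are plentiful, and insulin, dietary fat and hormones are known to act on the fatty acid branch.

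The series asks what estradiol and a high-fat diet do to the endometrial transcriptome once the ovaries are gone. Female C57BL/6 mice had both ovaries removed at 6 to 8 weeks of age, so that every group lacks ovarian hormones, and were then kept under treatment for 12 weeks. MIX mice (n = 3) received a subcutaneous pellet that releases E2, which is 17-β estradiol, together with a high-fat diet, E2 mice (n = 4) the pellet on chow, HD mice (n = 3) the high-fat diet without a pellet, and CON mice (n = 3) chow without a pellet. The tissue was scraped from the opened uterus, so it is a mixture of cells, and fewer cells of a type and less RNA per cell cannot be told apart in it. Each of the 13 samples has a code of its own in its title and was taken as 1 mouse on 1 array; where samples were not separate animals, p-values measure only the spread between samples.

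Values are the authors' log2 expression values per feature, a scale on which a difference of 1 is a doubling, and levels are not compared between genes because each feature has its own probes. Array medians lay between 4.48 and 4.71, and an array has no read depth, so the number of mice limits the precision. The markers of luminal and glandular epithelium (9 of 10 measured) had a mean of 9.80 to 10.2 over the 13 mice, and stromal markers (8 of 9) ran from 8.26 to 10.01, so the defining markers of scraped endometrium were present. Some mice and groups stood apart in markers of other cells. Macrophage markers (9 of 9 measured) averaged 7.68 to 8.81 in MIX, 7.77 to 8.04 in E2, 7.54 to 7.62 in HD and 6.77 to 7.09 in CON mice, so that all CON mice were below all others. Markers of dividing cells (7 of 8 measured) averaged 6.92 to 7.47 in MIX, 6.37 to 8.5 in E2, 6.46 to 8.59 in HD and 7.42 to 8.63 in CON mice. MIX replicate 2 had an endothelial marker mean of 7.83, against 5.03 to 6.18 in the other mice. Granulocyte markers averaged 6.27 to 9.49 in MIX, 6.23 to 8.41 in E2, 5.61 to 5.95 in HD and 4.82 to 5.44 in CON mice, with MIX replicate 3 and E2 replicate 1 highest. Squamous epithelium markers averaged 7.68 to 9.48 in MIX, 6.61 to 7.92 in E2, 6.03 to 6.15 in HD and 5.91 to 6.34 in CON mice. Adipocyte markers (11 of 13 measured) averaged 6.06 in CON replicate 3 and 5.26 to 5.52 in the other mice. Adipoq, the adiponectin gene that defines fat cells, was also highest there, at 4.10 against 3.07 to 3.52, all below the median level of the array. Retn, the resistin gene, was at 7.0 against 4.24 to 5.17. CON replicate 3 also had the highest mean of smooth muscle markers, 7.85 against 6.67 to 7.79 in the other mice. Its stromal marker mean was the lowest, 8.26 against 8.35 to 10.01. The titles carry a numbered style of code (no MIX, 3 E2, 2 HD and 2 CON mice) and a lettered style (3 MIX and 1 mouse of each other group), and no source explains the styles. Differences were therefore fitted in limma with code style as a covariate.

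None of the 36 members passed an adjusted p of 0.05 in limma in any of 8 comparisons. The range within the most spread group exceeded the range of the group means for 16 of 17 sterol genes, all but Insig2, and for 17 of 19 fatty acid genes. The widest of several ranges of single mice tends to exceed a range of means in any gene set. No share over all features was counted, so these counts only describe the spread. The median pooled SD was 0.36 beside a median range of group means of 0.27 in the sterol branch, and 0.25 beside 0.43 in the fatty acid branch. The mean over the 17 sterol genes was 7.53, 6.87 and 7.76 in the MIX mice, 8.08, 7.24, 7.05 and 7.27 in the E2 mice, 7.43, 7.52 and 7.04 in the HD mice, and 7.41, 7.38 and 7.29 in the CON mice. E2 replicate 1 was the highest of the 13 mice and MIX replicate 2 the lowest, and the groups overlapped in full: the CON values lay within the ranges of MIX, E2 and HD. The mean over the 19 fatty acid genes varied less, at 7.94, 8.0 and 7.95 in MIX, 7.88, 7.86, 7.81 and 8.06 in E2, 7.82, 7.75 and 7.85 in HD, and 7.92, 7.93 and 7.99 in CON mice. Within groups the pooled SD of that branch mean was 0.07, against 0.363 for the sterol branch.

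**Figure D1:**
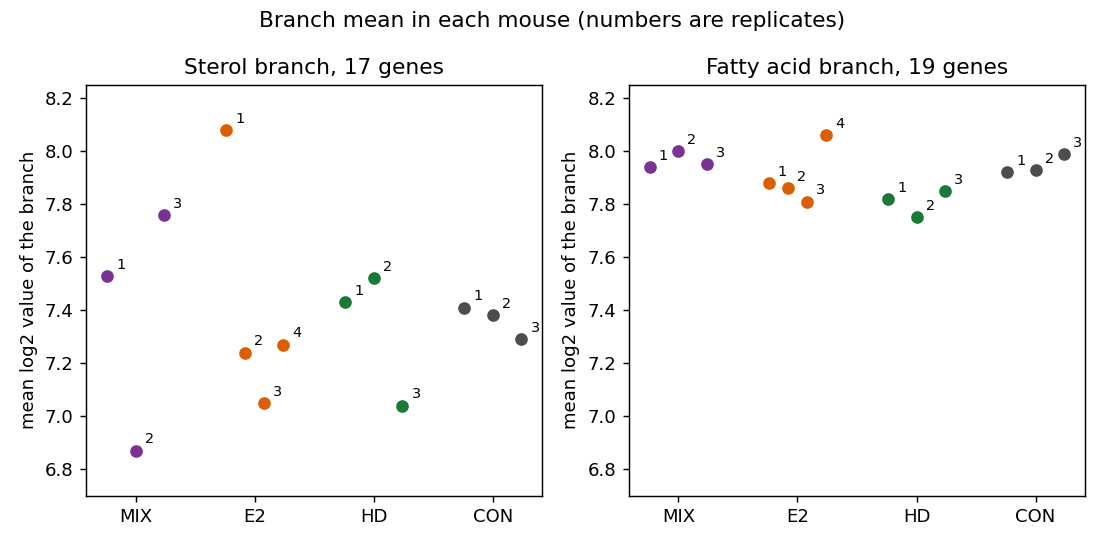
Mean log2 value of the 17 sterol genes (left) and of the 19 fatty acid genes (right) in each mouse, with 1 point per mouse labelled by replicate and groups along the horizontal axis. The sterol means run from 6.87 (MIX replicate 2) to 8.08 (E2 replicate 1), while the fatty acid means stay between 7.75 and 8.06.

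The sterol genes moved together from mouse to mouse. Across the 13 mice, the deviations from the group means had a mean pairwise Pearson correlation of 0.66 (Spearman 0.63) over the 136 pairs of sterol genes, -0.01 (0.01) over the 171 pairs of fatty acid genes and 0.01 (0.01) over all pairs of the 19823 genes with 1 symbol above the median level. The points share their arrays and their normalization, and these values are a description. Without E2 replicate 1 and MIX replicate 2, a choice made after seeing the data, the sterol value was 0.30 (0.29) over 11 mice, so the value rests in part on these mice. E2 replicate 1 had the highest value of all mice for 12 of 17 sterol genes (70.6%, beside 1987 of the 19823 genes), and MIX replicate 2 the lowest for 8 of 17 (47.1%, beside 17.6%). Within their groups, E2 replicate 1 was the highest E2 mouse for 16 of 17 genes, MIX replicate 2 the lowest MIX mouse for 16, MIX replicate 3 the highest MIX mouse for 14 and HD replicate 3 the lowest HD mouse for 11. These are the mice that stood apart in endothelial, granulocyte and squamous markers, apart from HD replicate 3, and the part of those cells in the sterol values was not tested. For the counts within groups, shares over other genes were not computed. In so small a group any mouse is often the highest or the lowest.

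The early steps of the pathway show the pattern. Hmgcs1 makes HMG-CoA, the substrate of the rate-limiting reductase, and had 8.57, 7.78 and 9.20 in MIX, 9.76, 8.22, 8.39 and 8.52 in E2, 9.05, 8.82 and 7.98 in HD, and 8.92, 8.60 and 8.53 in CON mice. E2 replicate 1 was far above the other E2 mice, MIX replicate 2 was the lowest of all, and every group overlapped with every other. The fitted difference of MIX from CON was 0.15 (SE 0.49, 95% confidence interval -0.94 to 1.24, adjusted p = 0.956 in limma), and that of E2 from CON 0.00 (SE 0.40, interval -0.88 to 0.89, adjusted p = 1). Differences of almost 1 log2 unit in either direction therefore lie inside the intervals. Idi1, which isomerises isopentenyl diphosphate for the chain that becomes squalene, had the widest range of the branch. It was at 6.87, 5.44 and 7.42 in MIX, 8.53, 6.54, 5.78 and 6.25 in E2, 6.80, 7.31 and 5.42 in HD, and 6.56, 6.51 and 6.43 in CON mice. The 3 CON mice lay close together, while each other group spread widely around them. The SD was 1.02 in MIX, 1.21 in E2, 0.98 in HD and 0.07 in CON.

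Later steps followed the same mice. Sqle, the epoxidase that opens the sterol-specific part of the route, had 7.04, 5.83 and 7.36 in MIX, 7.77, 6.66, 6.62 and 6.88 in E2, 7.20, 6.93 and 6.28 in HD, and 7.22, 7.0 and 6.84 in CON mice. Its groups overlapped, and MIX differed from CON by -0.02 (SE 0.45, adjusted p = 0.994 in limma). Cyp51, which removes a methyl group from lanosterol, had 8.06, 7.17 and 8.74 in MIX, 9.16, 8.13, 8.40 and 8.15 in E2, 8.09, 8.29 and 7.31 in HD, and 8.19, 7.88 and 7.60 in CON mice. Here 3 of 4 E2 mice lay within the span of the other groups, and E2 differed from CON by 0.52 (SE 0.34, adjusted p = 1 in limma). Msmo1, the oxidase that attacks the next methyl groups, had 6.35, 5.25 and 6.76 in MIX, 7.53, 6.05, 5.59 and 5.90 in E2, 6.05, 6.50 and 5.64 in HD, and 6.06, 5.93 and 6.05 in CON mice. Among all members it lay closest to the branch, with a correlation of 0.98 to the mean of the other sterol genes over the deviations of 13 mice. Sc5d, a desaturase of the last steps, averaged 8.71 ± 0.58 in MIX, 8.49 ± 0.38 in E2, 8.41 ± 0.05 in HD and 8.24 ± 0.15 in CON (SD, n = 3, 4, 3 and 3), with a MIX difference from CON of 0.54 (SE 0.32, adjusted p = 0.701 in limma). Fdps, Fdft1, Lss, Mvk, Mvd, Nsdhl and Stard4 had fitted MIX differences from CON between -0.22 and 0.38, none past the threshold. Correlations of 0.94 to 0.97 were found for Idi1, Fdps, Sqle and Hmgcs1, and 0.77 to 0.91 for Insig1, Mvk, Mvd, Fdft1, Lss, Cyp51, Sc5d, Nsdhl and Stard4.

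The regulators differed in how far they followed the branch. Srebf2, the transcription factor gene of the sterol branch, had 8.55, 7.70 and 8.73 in MIX, 8.35, 8.11, 8.21 and 8.35 in E2, 8.34, 8.17 and 8.23 in HD, and 8.58, 8.54 and 8.34 in CON mice. MIX replicate 2 was the lowest of all, E2 replicate 1 did not stand out, and the correlation with the other sterol genes was 0.65. Srebf2 in MIX differed from CON by -0.14 (SE 0.25, adjusted p = 0.917 in limma). Insig1, itself a target of the pathway's transcription factors, had 8.57, 7.62 and 8.21 in MIX, 8.74, 8.01, 7.38 and 7.65 in E2, 8.30, 8.65 and 8.09 in HD, and 7.82, 8.12 and 8.06 in CON mice. Groups overlapped, and HD differed from CON by 0.35 (SE 0.33, adjusted p = 1 in limma).

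**Figure D2:**
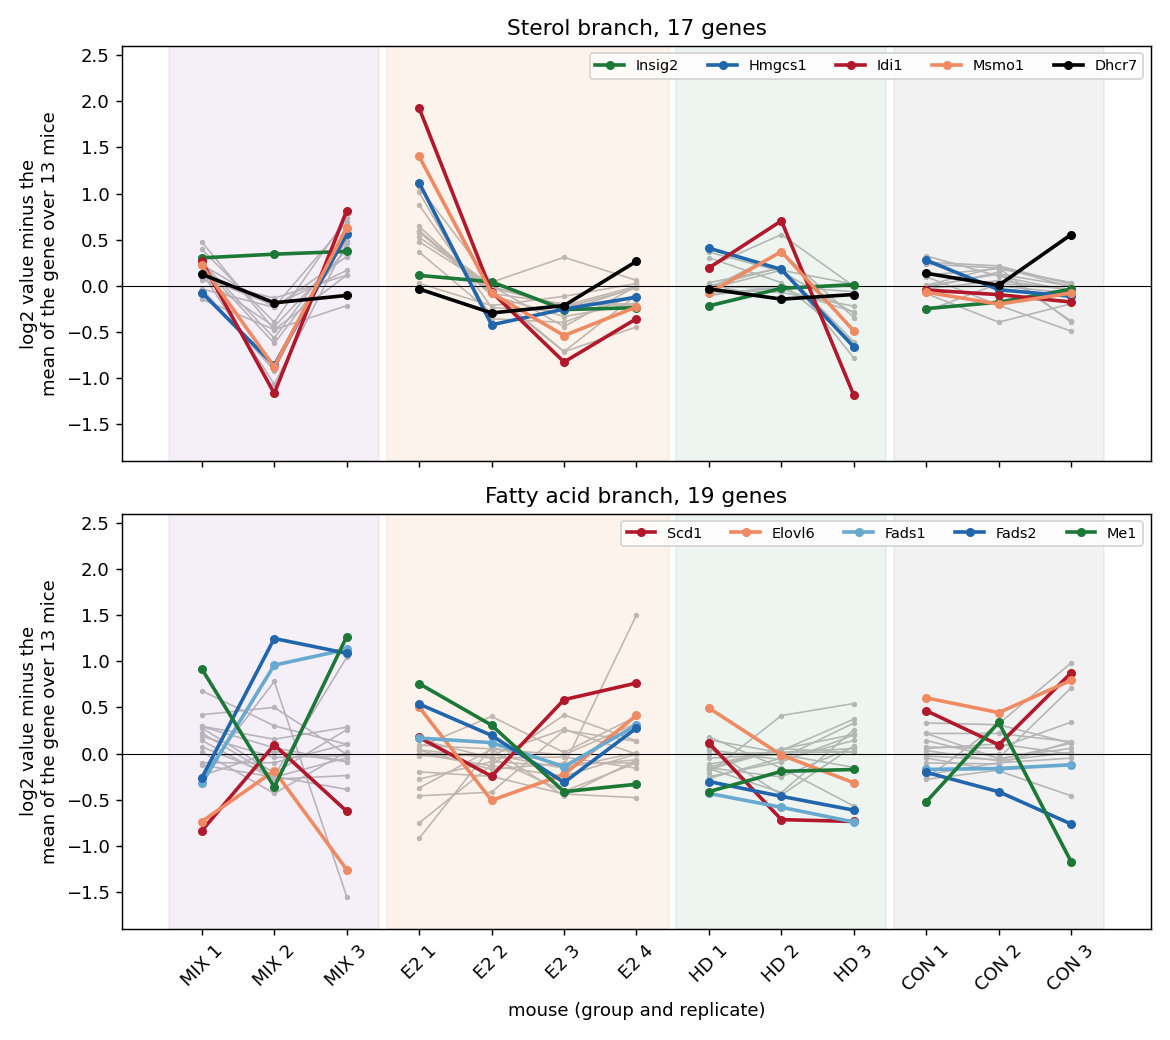
Log2 value of each member minus that gene's mean over 13 mice, for the sterol branch (top) and the fatty acid branch (bottom), with the mice in columns by group and replicate and 1 line per gene within a group. Idi1, Msmo1 and Hmgcs1 peak in E2 replicate 1 and drop in MIX replicate 2, Insig2 and Dhcr7 do not, and the named fatty acid genes run in different directions.

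Promoters of 5 sterol genes are printed here to set genes that moved together beside genes that did not, since promoters of this pathway are known for sterol regulatory elements flanked by NF-Y and Sp1 boxes. The sequences are RefSeq's, build GRCm38.p6, from 250 bases before to 50 bases after an annotated start, and 28 of 36 members had an entry (15 fatty acid and 13 sterol genes). Capitals mark matches, on either strand, to the sterol regulatory element TCACNCCAC, the NF-Y box CCAAT (read ATTGG on the other strand) and the Sp1 box GGGCGG (read CCGCCC), and no base of the printed sequences lies in more than 1 match. Hmgcs1 (chr13:119690101-119690400, plus strand), Idi1 (chr13:8885356-8885655, plus strand) and Msmo1 (chr8:64733529-64733828, minus strand) were among the genes that moved together.
Hmgcs1: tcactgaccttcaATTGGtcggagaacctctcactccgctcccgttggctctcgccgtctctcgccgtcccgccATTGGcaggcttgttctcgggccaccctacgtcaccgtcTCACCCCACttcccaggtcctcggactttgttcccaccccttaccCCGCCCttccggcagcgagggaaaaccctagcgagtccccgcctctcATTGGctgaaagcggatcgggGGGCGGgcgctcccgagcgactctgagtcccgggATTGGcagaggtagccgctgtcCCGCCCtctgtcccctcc
Idi1: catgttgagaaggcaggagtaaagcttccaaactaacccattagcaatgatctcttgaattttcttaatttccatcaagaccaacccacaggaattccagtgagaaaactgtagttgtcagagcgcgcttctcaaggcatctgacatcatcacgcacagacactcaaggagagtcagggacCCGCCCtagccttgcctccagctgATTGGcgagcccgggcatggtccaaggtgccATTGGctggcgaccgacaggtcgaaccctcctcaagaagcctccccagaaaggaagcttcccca
Msmo1: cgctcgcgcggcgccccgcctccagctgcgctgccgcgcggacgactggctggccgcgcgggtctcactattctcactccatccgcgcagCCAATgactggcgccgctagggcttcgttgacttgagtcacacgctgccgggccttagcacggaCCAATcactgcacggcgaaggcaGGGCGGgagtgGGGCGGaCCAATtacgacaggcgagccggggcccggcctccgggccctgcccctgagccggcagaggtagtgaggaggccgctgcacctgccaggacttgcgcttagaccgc
Insig2 (chr1:121332540-121332839, minus strand, 1 of 3 promoters) and Dhcr7 (chr7:143829964-143830263, plus strand, 1 of 3 promoters) were the members that followed the branch least, with correlations of 0.33 and 0.11.
Insig2: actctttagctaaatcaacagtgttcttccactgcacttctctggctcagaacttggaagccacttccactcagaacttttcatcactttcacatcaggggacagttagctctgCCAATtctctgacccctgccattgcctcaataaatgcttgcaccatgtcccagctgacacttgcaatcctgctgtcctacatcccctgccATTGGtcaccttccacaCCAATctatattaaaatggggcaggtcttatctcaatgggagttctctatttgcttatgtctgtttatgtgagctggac
Dhcr7: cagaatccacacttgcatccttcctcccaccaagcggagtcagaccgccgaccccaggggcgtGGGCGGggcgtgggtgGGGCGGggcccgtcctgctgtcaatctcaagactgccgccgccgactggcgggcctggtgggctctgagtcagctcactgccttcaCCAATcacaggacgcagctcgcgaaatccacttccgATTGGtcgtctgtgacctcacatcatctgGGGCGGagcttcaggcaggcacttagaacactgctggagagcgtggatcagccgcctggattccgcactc
A promoter with the NF-Y box was found for 13 of 13 sterol genes (100%) and 10 of 15 fatty acid genes (66.7%), beside 41.1% of all genes of the table and 41.6% of those above the median level of the array. For the Sp1 box the counts were 13 of 13 sterol genes and 8 of 15 fatty acid genes (53.3%), beside 38.2% of all genes and 61.8% of those above the median level. The sterol regulatory element was matched in Hmgcs1, at position -137 relative to the start, and in 1 of 2 promoters of Mlxipl, the gene of a glucose-responsive transcription factor, beside 1.44% of all genes. Counted by promoter, 13 of 17 sterol entries (76.5%) held the NF-Y box, beside 52.6% of fatty acid entries, 37.4% of all promoters and 36.8% of those of brighter genes. The Sp1 box was in 15 of 17 (88.2%), beside 47.4%, 35.7% and 56.3% in the same sets. The printed Dhcr7 promoter holds both short boxes, while 1 of its other promoters holds only the Sp1 box and the remaining one neither. Insig2 holds the NF-Y box in the printed promoter and the Sp1 box in its other promoters. A match is a string of letters, not a bound site.

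Insig2, which like Insig1 retains the pathway's transcription factors in the endoplasmic reticulum, was the sterol gene whose MIX mice stood apart from all others. It lies on chromosome 1 (GRCm38, 121304353 to 121332662) and had 7.01, 7.05 and 7.08 in MIX, 6.82, 6.75, 6.45 and 6.47 in E2, 6.49, 6.68 and 6.72 in HD, and 6.46, 6.53 and 6.67 in CON mice. Every MIX mouse was above every other mouse, and MIX replicate 2 was no exception. Insig2 was higher in MIX by 0.47 against CON (SE 0.13, adjusted p = 0.39 in limma, 1.39-fold), by 0.40 against E2 (SE 0.13, adjusted p = 1) and by 0.40 against HD (SE 0.13, adjusted p = 0.685). Among lettered mice alone, the MIX mean of 7.05 lay 0.57 above the E2 mouse, 0.32 above the HD mouse and 0.38 above the CON mouse. With the replicate number as a block the differences were 0.29, 0.07 and 0.22 for MIX against CON, E2 and HD. The pellet difference averaged over diets was 0.24 (SE 0.08, adjusted p = 0.409) and the diet difference averaged over pellet states 0.24 (SE 0.09, adjusted p = 1).

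Dhcr7, which encodes the last reductase on the way to cholesterol, had lower means in the 3 treated groups than in CON. It had 7.14, 6.83 and 6.91 in MIX, 6.98, 6.72, 6.80 and 7.28 in E2, 6.98, 6.87 and 6.92 in HD, and 7.15, 7.02 and 7.57 in CON mice. All HD mice were below all CON mice, whereas the lowest CON mouse was below 1 MIX and 1 E2 mouse. MIX differed from CON by -0.50 (SE 0.14, adjusted p = 0.419 in limma), HD by -0.32 (SE 0.13, adjusted p = 1) and E2 by -0.27 (SE 0.12, adjusted p = 1). CON replicate 3, the mouse with the highest adipocyte markers, was the highest, and without it the differences were -0.36, -0.23 and -0.20. Without code style in the fit the MIX difference was -0.29, which is also the plain difference of the group means.

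In the fatty acid branch the desaturase of newly made saturated fatty acids had lower means with the high-fat diet. The elongase of these fatty acids had lower means with the diet and with the pellet alike. The desaturases of polyunsaturated fatty acids had higher means with the pellet. None of these differences passed the adjusted threshold. Scd1, the stearoyl-CoA desaturase that makes oleate (chromosome 19, 44394450 to 44407709), had 7.10, 8.03 and 7.31 in MIX, 8.11, 7.69, 8.52 and 8.70 in E2, 8.05, 7.22 and 7.20 in HD, and 8.40, 8.03 and 8.81 in CON mice. The 4 lowest values were all from mice on the high-fat diet, and 1 mouse in each of MIX and HD reached the range of the chow groups. Scd1 differed by -0.92 in HD against CON (SE 0.34, adjusted p = 1 in limma), by -0.98 in MIX against E2 (SE 0.38, adjusted p = 1) and by -1.11 in MIX against CON (SE 0.39, adjusted p = 0.472). Averaged over pellet states, the diet difference was -0.95 (SE 0.26, adjusted p = 1, 0.52-fold), and it ran from -1.19 to -0.72 over the alternatives. Without CON replicate 3, whose adipocyte markers were highest, the averaged diet difference was -0.81 (SE 0.32, adjusted p = 1). Markers of dividing cells had a median diet difference of -0.542 with 0 of 7 above 0 and 0 past the threshold, and their part in the Scd1 difference was not tested. Their means were 7.19 in MIX replicate 1, 7.47 in MIX replicate 3, 6.95 in HD replicate 2 and 6.46 in HD replicate 3, the 4 mice lowest in Scd1. MIX replicate 2 and E2 replicate 2 had marker means of 6.92 and 6.37, with Scd1 at 8.03 and 7.69. CON replicate 3, the highest in Scd1, had a marker mean of 7.42. The remaining mice were E2 replicates 1, 3 and 4, HD replicate 1, and CON replicates 1 and 2. Their marker means ran from 8.22 to 8.63, with Scd1 from 8.03 to 8.70. The difference of HD from CON was -0.58 among numbered mice alone and -1.60 between the lettered HD and CON mice, and without HD replicate 3 it was -0.58.

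Elovl6, which elongates palmitate to stearate (chromosome 3, 129532386 to 129638495), showed the lowest values in MIX. It had 6.93, 7.48 and 6.41 in MIX, 8.17, 7.16, 7.44 and 8.08 in E2, 8.16, 7.65 and 7.35 in HD, and 8.27, 8.11 and 8.46 in CON mice. Every MIX mouse was below every CON mouse, while E2 and HD overlapped with both. MIX differed from CON by -1.40 (SE 0.38, adjusted p = 0.39 in limma, 0.38-fold), and the value ran from -1.72 to -1.13 over the alternatives. The averaged pellet difference (SE 0.24, adjusted p = 0.408) and the averaged diet difference (SE 0.25, adjusted p = 1) were each -0.70. The lettered MIX mice averaged 6.94, which was 1.14 lower than the E2, 0.41 lower than the HD and 1.52 lower than the CON mouse with a lettered code. Without CON replicate 3 the MIX difference was -1.25 (SE 0.53, adjusted p = 0.829). E2 and HD each differed from CON by -0.56, with adjusted p = 1 in limma. The markers of dividing cells had a median difference of -0.552 in MIX minus CON, with 0 of 7 above 0. Their median was -0.012 in the averaged pellet difference, with 3 of 7 above 0. In the averaged diet difference their median was -0.542, with 0 of 7 above 0. The part of dividing cells in the Elovl6 values was not tested.

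**Figure D3:**
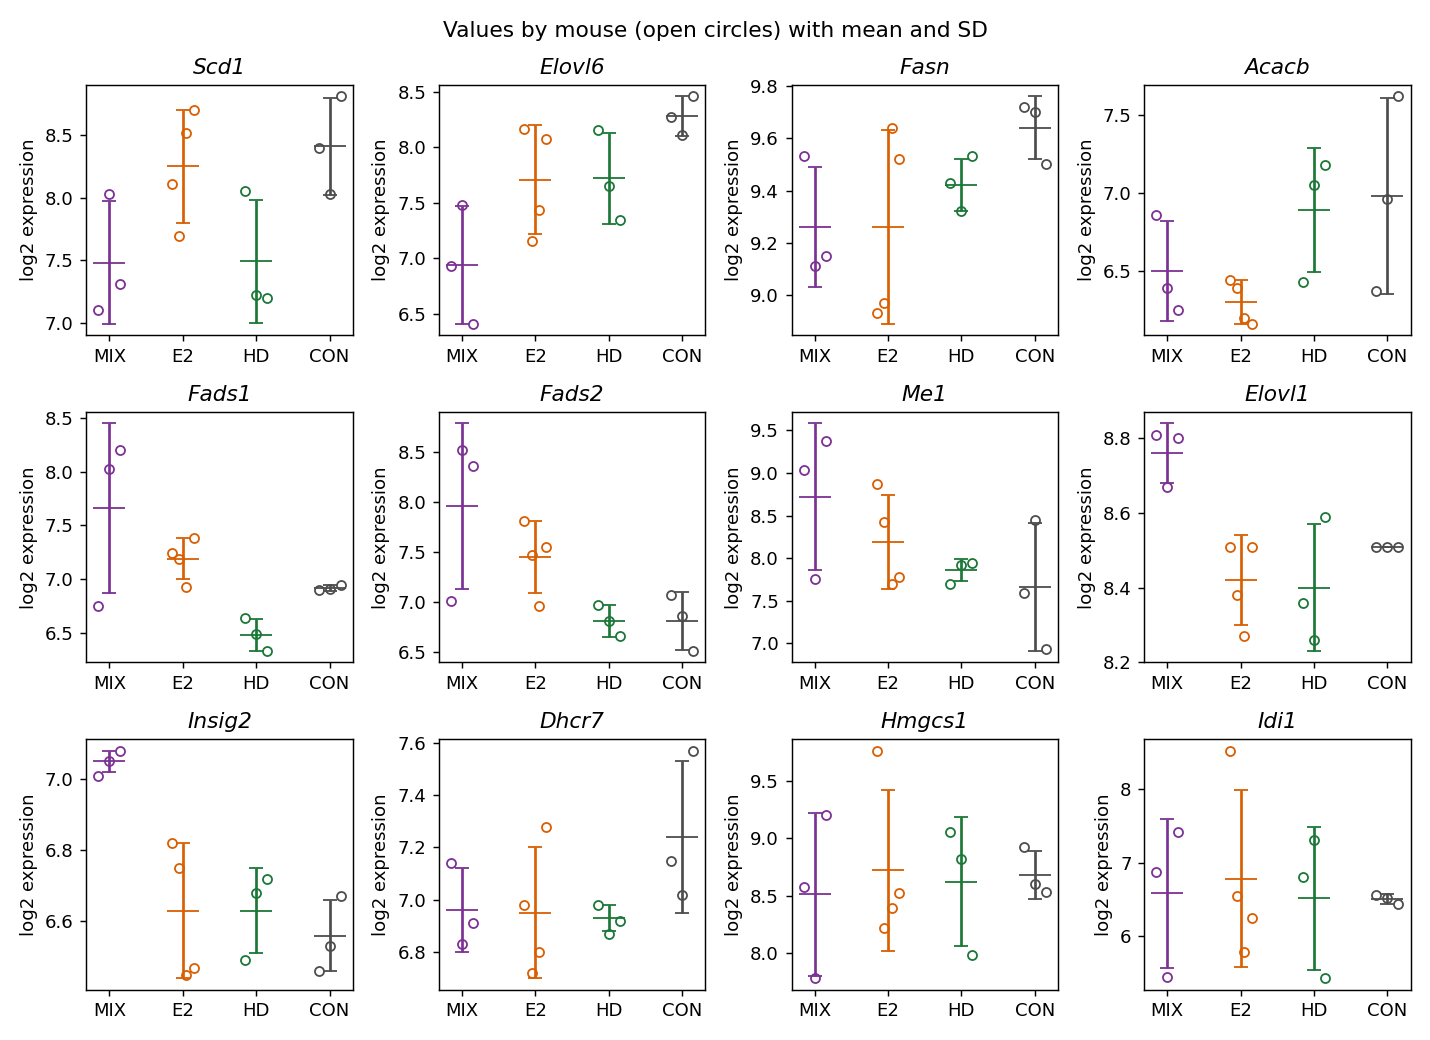
Log2 expression of 12 members by group (MIX, E2, HD, CON), with open circles for mice, the horizontal bar for the mean and the vertical bar for the SD; each panel has its own vertical scale, which does not start at 0. Insig2 is higher in the 3 MIX mice than in all others, Elovl6 is lower in MIX than in CON, and Fads1 and Fads2 have 1 low MIX mouse (6.75 and 7.01) beside 2 above 8.

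Fads1 and Fads2 encode the front-end desaturases that make arachidonic acid and its relatives, and they neighbour each other on chromosome 19 (10182877 to 10196874 and 10062765 to 10101503). Fads1 had 6.75, 8.03 and 8.20 in MIX, 7.24, 7.19, 6.93 and 7.38 in E2, 6.64, 6.49 and 6.33 in HD, and 6.90, 6.91 and 6.95 in CON mice. Fads2 had 7.01, 8.52 and 8.36 in MIX, 7.81, 7.47, 6.96 and 7.55 in E2, 6.97, 6.81 and 6.66 in HD, and 7.07, 6.86 and 6.51 in CON mice. For both genes all MIX mice were above all HD mice, and MIX replicate 1 was far below the other MIX mice. Fads1 was higher in MIX than in HD by 1.15 (SE 0.35, adjusted p = 0.685 in limma, 2.23-fold), and HD was below CON without overlap, by -0.44 (SE 0.31, adjusted p = 1). Fads2 was higher in MIX by 1.26 against HD (SE 0.41, adjusted p = 0.685) and by 1.26 against CON (SE 0.41, adjusted p = 0.448). The pellet difference averaged over diets was 0.71 for Fads1 (SE 0.22, adjusted p = 0.367) and 0.94 for Fads2 (SE 0.26, adjusted p = 0.321). Only without MIX replicate 1, among the mice left out in turn, did members pass: the averaged pellet differences were then 0.94 for Fads1 (adjusted p = 0.0165 in limma) and 1.18 for Fads2 (adjusted p = 0.0316). Fads1 in MIX then differed from HD by 1.61 (adjusted p = 0.0187) and from CON by 1.17 (adjusted p = 0.0469). In that setting limma called 224 of 65929 features in the averaged pellet difference, 80 in MIX minus HD and 40 in MIX minus CON. With all mice these counts were 11, 3 and 2. MIX replicate 1 also had the lowest endothelial marker mean of the 13 mice, 5.03, and macrophage markers had a median pellet difference of 0.94 with 8 of 9 above 0. In MIX replicates 1 to 3, stromal markers averaged 8.6, 10.01 and 9.76, and lymphocyte markers 5.4, 6.01 and 6.02. Their median pellet differences were 0.452 (8 of 8 above 0) and 0.489 (7 of 7). Granulocyte and squamous markers were lowest among MIX mice in replicate 2, at 6.27 and 7.68. The part of any of these cells in the Fads values was not tested.

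Fads3, a gene of the same cluster that is not a member, had 6.11, 7.10 and 6.93 in MIX, 6.80, 6.30, 5.82 and 6.29 in E2, 5.90, 5.67 and 5.79 in HD, and 6.06, 6.06 and 5.77 in CON mice. MIX mice were above all HD and all CON mice, and replicate 1 was again the lowest MIX mouse. MIX exceeded HD by 0.99 for Fads3 (SE 0.31, adjusted p = 0.685 in limma). Among lettered mice, the MIX mean of Fads1 was 0.28 above the E2, 1.33 above the HD and 0.71 above the CON mouse, and for Fads2 these were 0.41, 1.30 and 1.45.

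The genes that supply carbon and reducing power did not move as a block. Me1, the malic enzyme that makes NADPH, had 9.03, 7.75 and 9.38 in MIX, 8.87, 8.42, 7.70 and 7.78 in E2, 7.70, 7.92 and 7.94 in HD, and 7.59, 8.45 and 6.94 in CON mice. The spread was wide, with 2 MIX mice highest of all and the third inside the CON range. MIX was above CON by 1.40 (SE 0.51, adjusted p = 0.493 in limma) and above HD by 1.20 (SE 0.51, adjusted p = 0.7), against plain differences of the means of 1.06 and 0.87. Acly, which cleaves citrate, had 8.78, 8.33 and 8.78 in MIX, 8.80, 8.59, 8.66 and 8.66 in E2, 8.91, 8.77 and 8.78 in HD, and 8.98, 8.98 and 8.89 in CON mice. All mice with a pellet were below all CON mice, and E2 differed from CON by -0.27 (SE 0.11, adjusted p = 1 in limma) and MIX by -0.28 (SE 0.13, adjusted p = 0.622). Without MIX replicate 2 the MIX difference for Acly was -0.13. Acss2, which makes acetyl-CoA from acetate, averaged 6.48 ± 0.29 in MIX (SD, n = 3) and 5.93 ± 0.09 in CON (SD, n = 3) without overlap, a fitted difference of 0.41 (SE 0.19, adjusted p = 0.616 in limma).

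Acaca and Acacb encode the acetyl-CoA carboxylases, the cytosolic form for synthesis and the mitochondrial form that restrains fatty acid oxidation. Acaca had 7.14, 7.40 and 7.29 in MIX, 7.45, 7.78, 7.39 and 7.78 in E2, 7.56, 7.22 and 6.81 in HD, and 7.41, 7.30 and 7.39 in CON mice. The groups overlapped, and MIX differed from CON by -0.03 (SE 0.20, interval -0.48 to 0.42, adjusted p = 0.98 in limma). Acacb had 6.86, 6.39 and 6.25 in MIX, 6.44, 6.39, 6.20 and 6.16 in E2, 6.43, 7.05 and 7.18 in HD, and 6.37, 6.96 and 7.62 in CON mice. The 4 highest values came from mice without a pellet, and MIX replicate 1 came next. The pellet difference averaged over diets was -0.64 (SE 0.20, adjusted p = 0.353 in limma), and -0.42 without CON replicate 3. Fasn, the synthase that builds palmitate, had 9.53, 9.11 and 9.15 in MIX, 8.93, 8.97, 9.64 and 9.52 in E2, 9.43, 9.32 and 9.53 in HD, and 9.72, 9.70 and 9.50 in CON mice. E2 split into a low and a high pair, and Fasn differed from CON by -0.45 in MIX (SE 0.22, adjusted p = 0.645 in limma), -0.37 in E2 (SE 0.18, adjusted p = 1) and -0.22 in HD (SE 0.19, adjusted p = 1).

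Further elongases, regulators and triglyceride enzymes complete the branch. Elovl1, which extends very long saturated chains, had 8.81, 8.67 and 8.80 in MIX, 8.51, 8.38, 8.27 and 8.51 in E2, 8.36, 8.26 and 8.59 in HD, and 8.51, 8.51 and 8.51 in CON mice. All MIX mice were above all others, by 0.27 against HD (SE 0.10, adjusted p = 0.685 in limma), 0.24 against E2 (SE 0.09, adjusted p = 1) and 0.16 against CON (SE 0.10, adjusted p = 0.703). The interaction (how far the pellet difference in mice fed high fat exceeded that in chow-fed mice) was 0.35 for Elovl1 (SE 0.13, adjusted p = 1). Agpat2, an acyltransferase of triglyceride synthesis whose loss causes lack of fat tissue in humans and mice, had 7.75, 7.75 and 7.95 in MIX, 7.85, 7.84, 7.69 and 7.86 in E2, 7.80, 7.84 and 7.70 in HD, and 7.92, 7.91 and 8.19 in CON mice. E2 and HD mice were all below the CON mice, by -0.19 (SE 0.09, adjusted p = 1 in limma) and -0.22 (SE 0.09, adjusted p = 1). Without CON replicate 3 these were -0.09 and -0.12, and the part of its adipocyte markers in the values was not tested. Thrsp, a lipogenic nuclear protein gene, had the widest range of the branch, with 7.55, 8.58 and 6.25 in MIX, 6.88, 7.87, 7.67 and 9.30 in E2, 7.86, 7.35 and 7.88 in HD, and 7.94, 7.75 and 8.51 in CON mice. MIX and E2 enclosed the HD and CON values. Thrsp averaged 7.46 in MIX and 8.07 in CON. Its fitted lettered minus numbered difference was 0.959 (SE 0.454, adjusted p = 0.925 in limma), so its fitted MIX difference depends on code style. E2 minus CON was 0.79 between the lettered mice and -0.37 among numbered mice. Mlxipl averaged 5.45 ± 0.10 in MIX, 5.65 ± 0.14 in E2, 5.62 ± 0.03 in HD and 5.64 ± 0.06 in CON (SD, n = 3, 4, 3 and 3), and all MIX mice were below all others, by -0.17 against CON (SE 0.10, adjusted p = 0.716 in limma). Dgat2, which completes triglycerides, and Elovl5, an elongase of polyunsaturated chains, had group means of 10.83 to 11.02 and 10.89 to 11.07. Dgat1, Gpam and Lpin1, the other triglyceride enzymes, had fitted MIX differences from CON of 0.62, 0.32 and -0.06, with adjusted p = 0.629, 0.714 and 0.926 in limma.

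**Figure D4:**
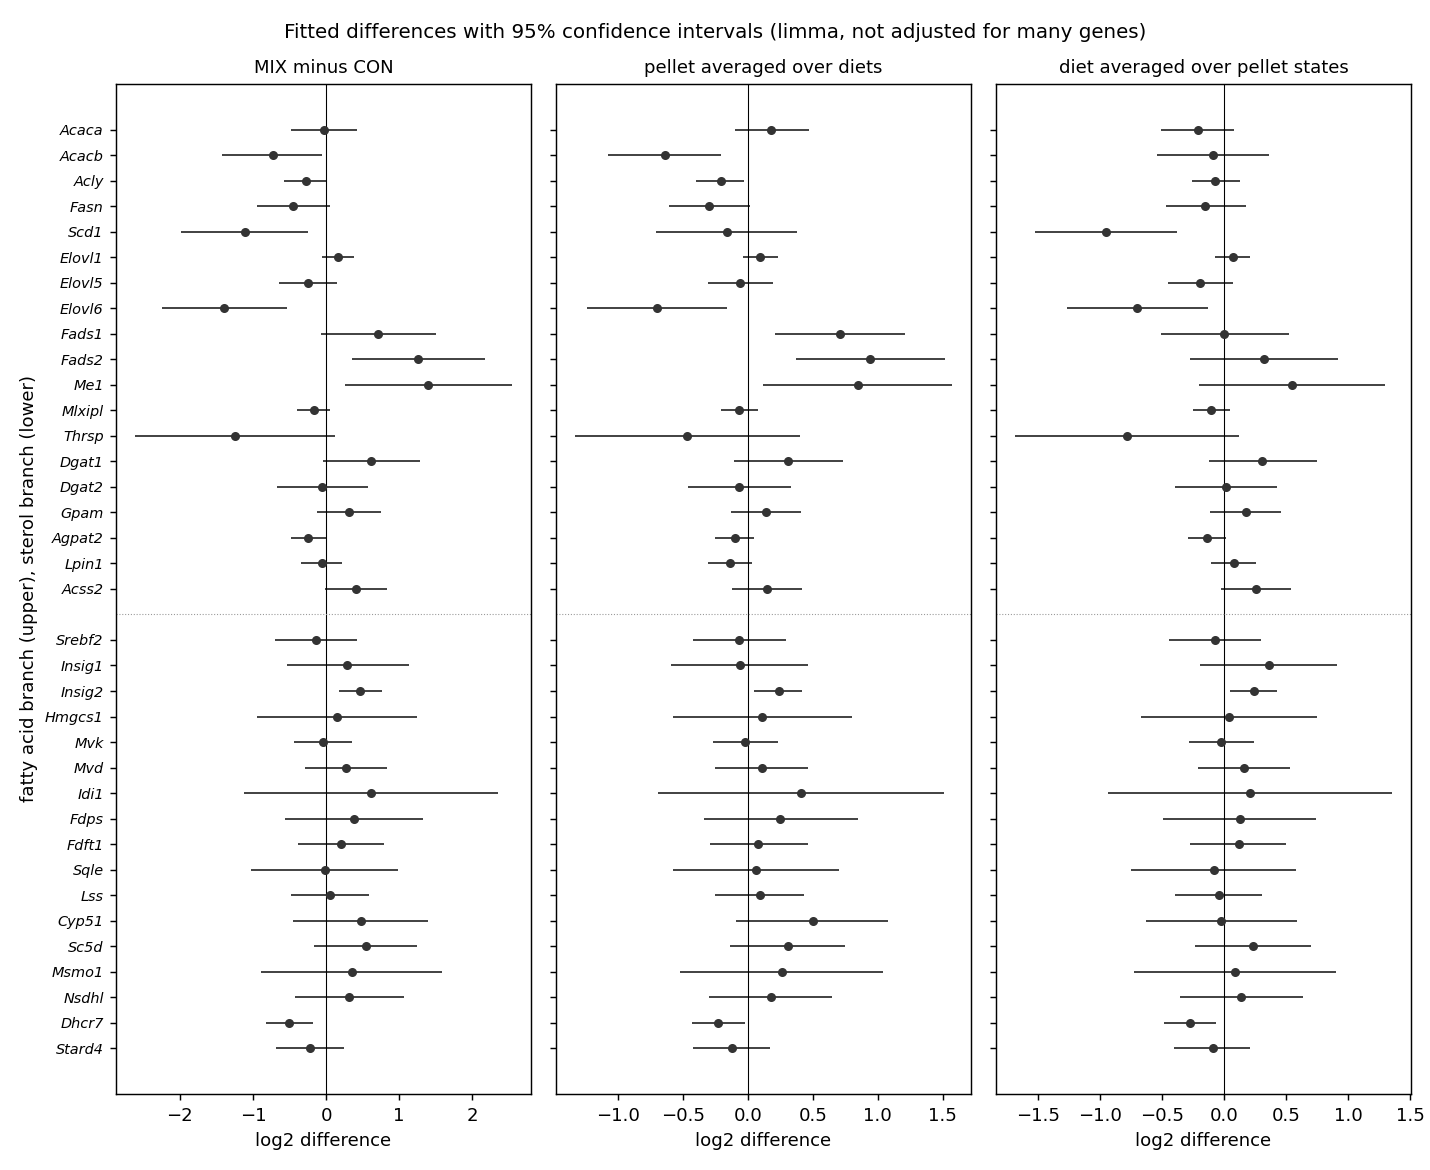
Fitted log2 differences with 95% confidence intervals from limma for 36 members, fatty acid genes above and sterol genes below the dotted line, for MIX minus CON, the pellet averaged over diets and the diet averaged over pellet states; horizontal scales differ. Elovl6, Thrsp and Scd1 lie farthest below 0 and Me1 and Fads2 farthest above it in MIX minus CON, and no member passed after adjustment over all features. The Thrsp value depends on the code-style covariate, beside plain means of 7.46 in MIX and 8.07 in CON.

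Counted over each comparison, the members gave 0 calls beside few or none on the whole array. At an adjusted p under 0.05, limma called 0 of 65929 features in E2 minus CON (0%), HD minus CON (0%), MIX minus E2 (0%), the interaction (0%) and the averaged diet difference (0%), 2 in MIX minus CON (0.00303%), 3 in MIX minus HD (0.00455%) and 11 in the averaged pellet difference (0.0167%). At an unadjusted p under 0.05 the members were read beside the features above the median level, since all 36 lie there, and beside all features in either direction. In E2 minus CON 0 members were higher and 3 lower, beside 2.64% and 3.07% of brighter features and 4.02% of all features. In HD minus CON 0 were higher and 3 lower, beside 1.93%, 1.42% and 2.91%. In MIX minus CON 3 were higher and 4 lower, beside 5.52%, 6.77% and 8.34%. In MIX minus E2 2 were higher and 1 lower, beside 1.54%, 1.82% and 2.78%. In MIX minus HD 5 were higher and 0 lower, beside 3.86%, 5.57% and 7.05%. The interaction had 1 higher and 0 lower, beside 0.928%, 1.33% and 2.1%. The averaged pellet difference had 4 higher and 4 lower, beside 5.83%, 8.56% and 9.99%, and the averaged diet difference 1 higher and 3 lower, beside 2.04%, 2.25% and 3.36%. The comparisons share mice, so their counts are not independent.

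Groups without overlap were read beside the same kinds of background. Between MIX and CON 4 members were higher and 4 lower without overlap, beside 7.17% and 15.7% of brighter features and 17.9% of all features. Between MIX and E2 3 were higher and 1 lower, beside 1.87%, 4.61% and 5.65%. Between MIX and HD 4 were higher and 1 lower, beside 4.99%, 13.3% and 15.9%. Between HD and CON 0 were higher and 3 lower, beside 5.1%, 4.12% and 8.54%, and between E2 and CON 0 were higher and 3 lower, beside 3.48%, 3.76% and 5.61%.

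The median fitted difference of the sterol branch was 0.268 in MIX minus CON, with 12 of 17 genes above 0, beside -0.028 and 42.5% above 0 over all features. It was 0.148 in MIX minus E2 with 14 of 17 above 0 (-0.019 and 43.7% over all features), 0.202 in MIX minus HD with 14 of 17 (-0.044 and 37.5%) and 0.214 in the interaction with 15 of 17 (-0.037 and 40.4%). These values depend on the code-style covariate. Without it the sterol medians were 0.049 in MIX minus CON (10 of 17 above 0), 0.012 in MIX minus E2 (9 of 17), 0.055 in MIX minus HD (12 of 17) and 0.024 in the interaction (9 of 17). In E2 minus CON (-0.017) and HD minus CON (-0.037) the sterol median lay near 0. The medians also hang on a few mice: that of MIX minus CON was 0.495 without MIX replicate 2 and 0.051 without MIX replicate 3, and that of E2 minus CON was -0.233 without E2 replicate 1. Without MIX replicate 3 it was -0.003 in MIX minus E2, 0.009 in MIX minus HD and -0.022 in the interaction. Leaving out both E2 replicate 1 and MIX replicate 2 gave 0.45 for MIX minus CON and -0.233 for E2 minus CON. The fatty acid branch had medians of -0.06 in MIX minus CON, -0.045 in E2 minus CON and -0.108 in HD minus CON. They were -0.02 in MIX minus E2 and -0.067 in MIX minus HD. Over features above the median level the medians were -0.061, -0.027, 0.007, -0.028 and -0.064 in the same order. Above 0 were 7, 7, 7, 8 and 8 of 19 genes, beside 38.3%, 41.6%, 52.6%, 42.1% and 36.5% of those features. In the interaction the fatty acid median was 0.121 with 11 of 19 above 0, beside -0.037 and 40.4% over all features. Without code style it was 0.218 with 15 of 19 above 0. The averaged pellet difference had medians of -0.067 for the fatty acid and 0.106 for the sterol branch, and the averaged diet difference -0.068 and 0.086. Over features above the median level the medians of these 2 differences were -0.047 and -0.008. Without code style the sterol values were 0.032 for the pellet and -0.06 for the diet difference. Without E2 replicate 1 the sterol value of the pellet difference was -0.022. For the diet difference, leaving out MIX replicate 3 gave -0.048, MIX replicate 1 gave 0.028 and MIX replicate 2 gave 0.226.

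Other genes of the pathways did not pass either. Of 34 further fatty acid genes 32 were measured, and of 20 further sterol genes 12, and limma called 0 of them in the 8 comparisons. At an unadjusted p under 0.05, 2 of the further fatty acid genes were higher and 3 lower in MIX minus CON, 3 higher and 1 lower in MIX minus HD, and 3 higher and 2 lower in the averaged pellet difference, while 0 of the further sterol genes reached it there. Mogat1, a monoacylglycerol acyltransferase gene, averaged 5.02 ± 0.25 in MIX, 5.19 ± 0.09 in E2, 5.59 ± 0.08 in HD and 5.46 ± 0.15 in CON (SD, n = 3, 4, 3 and 3), an averaged pellet difference of -0.41 (SE 0.09, adjusted p = 0.227 in limma). Tecr, the last reductase of elongation, averaged 9.76 ± 0.05 in MIX and 10.06 ± 0.02 in CON (SD, n = 3 each), a fitted difference of -0.41 (SE 0.13, adjusted p = 0.433). Lpin2, a phosphatidate phosphatase gene, averaged 6.46 ± 0.58 in MIX and 5.76 ± 0.26 in CON (SD, n = 3 each), a fitted difference of 0.87 (SE 0.27, adjusted p = 0.442). The smallest p among the further sterol genes belonged to Lbr, a lamin-binding sterol reductase, which differed by -0.59 in HD against CON (SE 0.32, adjusted p = 1). Ebp, Scap and Mylip, the others named by the same rule, differed by -0.19 in E2 against CON, -0.25 in HD against CON and 0.28 in MIX against E2, each with adjusted p = 1. A pair of genes outside the rule for named genes were picked after their values were seen. Scd3, a desaturase gene near Scd1, averaged 5.96 ± 0.13 in MIX, 6.28 ± 0.16 in E2, 5.98 ± 0.22 in HD and 6.35 ± 0.18 in CON (SD, n = 3, 4, 3 and 3), an averaged diet difference of -0.34 (SE 0.11, adjusted p = 1 in limma). Hsd17b7, a reductase of the sterol branch, was at 5.83 in MIX replicate 2 and 7.28 in E2 replicate 1, the lowest of the MIX and the highest of the E2 mice.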

How the data were processed

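The authors deposited a log2 value for each array feature and sample, made by RMA per the submitters' processing notes. Its version, library files and filters are not given in the sources consulted. Per the labels' protocols, 250 ng of total RNA per sample was labelled for an Affymetrix array. Of 65929 features, 31216 carried 1 symbol, 1534 several and 33179 none here, and 1451 had symbols updated through Entrez identifiers. Arrays have no read depth.

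All 13 arrays entered 1 fit in limma 3.58.1 (R 4.3.3: lmFit, eBayes) with 4 group coefficients and code style, leaving 8 residual degrees of freedom. P-values were adjusted by Benjamini-Hochberg over 65929 features, with a threshold of 0.05. E2, HD and MIX share the CON mice. The fit was also run on simulated data with independent genes and the same spread in every group. The sterol genes differ from such data, since they moved together and their spread differed between groups. Members may all be named; values for every mouse were given for regulators, early steps and the 2 members per branch and comparison with the smallest p, and up to 4 other genes per list by smallest p. Other members given in every mouse were added for context after their values were seen. Members and lists were chosen with earlier results of these data known. Same-numbered mice of different groups were compared for pairing: 5 of 18 pairs had a correlation of deviations above 0.1 (-0.261 to 0.31), so the numbers were not taken to pair mice. Alternatives were no code style, a replicate block, a filter on dim features, centred arrays, averaged features, a trended robust prior, array weights, numbered mice alone and each mouse left out. Leaving out CON replicate 3 with MIX replicate 2, or E2 replicate 1 with MIX replicate 2, was chosen after seeing the data.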

Additional observations from a re-analysis of the deposited data

Results flagged for a closer look

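In 3 of 38 values tested (36 members and both branch means), 1 E2 mouse lay far from the other 3 by Dixon's criterion at 95% (critical value 0.829 for 4 samples), which chance gives in about 1 in 20 groups. Mlxipl was 5.86 in E2 replicate 3, above the other E2 mice (gap over range 0.934). Agpat2 was 7.69 in E2 replicate 3, below the others (0.914). Sc5d was 9.05 in E2 replicate 1, above the others (0.847), the mouse with the highest value for 12 of 17 sterol genes. The groups of 3 mice were not tested in this way.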

How the results depend on the processing

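Of 6408 values of 288 member differences under the alternatives, 479 changed sign, in 131 differences of which 0 had an unadjusted p under 0.05 in limma, and the largest of these was 0.61 in size. Members passed the adjusted threshold in 4 results, all without MIX replicate 1 (Fads1 in 3, Fads2 in 1). There 40 features were called in MIX minus CON, 80 in MIX minus HD and 224 in the pellet difference. Where a value moved, the cause was not tested. Features called in MIX minus CON (2) became 15 without code style, 11 among brighter features, 5 with centred arrays, 13 with array weights and 0 with the replicate block. In MIX minus HD (3) they became 12, 6 among brighter features, 7 with array weights and 0 with the block, in the pellet difference (11) 7 with a trended robust prior and 0 with the block, in MIX minus E2 (0) 1 without code style, and in the diet difference (0) 1 with array weights. Without CON replicate 3 and MIX replicate 2 the counts were 1 in MIX minus CON, 2 in MIX minus E2, 22 in MIX minus HD and 1 each in the interaction, pellet and diet differences. Without E2 replicate 1 and MIX replicate 2 they were 185, 49, 102, 9, 69 and 17 in that order. The fatty acid median in MIX minus CON was 0.01 with centred arrays and -0.155 with array weights, and in MIX minus E2 0.182 without code style and 0.131 without CON replicate 3 and MIX replicate 2. In MIX minus HD it was 0.073 without code style, 0.035 centred, 0.045 without CON replicate 3 and MIX replicate 2 and 0.014 without E2 replicate 1 and MIX replicate 2. In the interaction it was 0.218 without code style, 0.193 with the replicate block, 0.202 centred and 0.216 with array weights, in the pellet difference 0.012 without code style and 0.028 without E2 replicate 1 and MIX replicate 2, and in the diet difference 0.017 without code style. Leaving out each mouse in turn gave 0 to 89 features called in MIX minus CON, 0 to 24 in MIX minus E2, 0 to 80 in MIX minus HD, 0 to 2 in the interaction, 0 to 224 in the pellet difference and 0 to 3 in the diet difference. The fatty acid members called ran over 0 to 1, 0 to 1 and 0 to 2 in MIX minus CON, MIX minus HD and the pellet difference. The fatty acid median ran over -0.162 to -0.047 in MIX minus CON, -0.083 to 0.083 in MIX minus E2, -0.109 to 0.02 in MIX minus HD, 0.005 to 0.145 in the interaction, -0.093 to 0.007 in the pellet difference and -0.106 to 0.008 in the diet difference. Centring arrays put 60.9% of all features above 0 in MIX minus CON, against 42.5% as deposited. The replicate numbers were not taken to pair the mice. With so few mice a group, the check of correlations cannot exclude pairing. Numbered mice alone gave values for E2 and HD against CON only, since no MIX mouse has such a code. With 3 or 4 mice a group, spread between mice limits every value.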
